A study of Rattus norvegicus with 3 samples.

Results

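The salivary proline-rich protein genes of the rat were followed across the 3 major salivary glands of male Wistar rats. Members were the probes whose description contains proline-rich, glutamic acid-rich or salivary in a fixed stretch of chromosome 4, which reaches from the Prpg1 probe to the Grpca probe and a little beyond (positions on rn4, the build of the array files), together with the probes named Prpg1, Sgp158, Grpca or PRP-2 and the probe described as PRP25. This rule found 9 probes of 7 genes among 41012 probes under 35752 names. It uses positions and names, not signals. A further 11 probes lie in the same stretch of chromosome 4 without such a description. Both PRP-2 probes are placed on chromosome 10 by the array files, so 7 of the 9 member probes lie in the chromosome 4 cluster.

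RNA came from parotid, submandibular and sublingual glands of normal rats aged 10 weeks, with 1 single-colour array per gland and 500 ng of total RNA labelled for each. The study used 3 rats; the labels do not state whether an array holds 1 animal or a pool. With 1 array per gland, no difference below has a replicate check and none was tested. A level is the log2 of the processed signal of a probe over the 75th percentile of its array, and a difference is one array's level minus another's. Levels were not compared between probes, because probes differ in brightness. The error in brackets is the scanner software's own error of the spots, combined for a difference; it covers the spot, not the animal. Where a probe was not well above background on the dimmer array, the difference is given as a lower bound. Such a bound is taken against the higher of the probe's own level and the lowest level called well above background on that array.

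The arrays were alike in range: 52.8% to 55.3% of probes were well above background, and no spot was saturated. The array labelled submandibular is called submandibular-labelled here. The products of the granular convoluted ducts, the androgen-dependent duct segment that defines the rodent submandibular gland, differed between it and the sublingual array by a median of 0.36 over 8 compared genes, and 0 of the 8 passed 4-fold; few features did, since over all genes 0.194% were at least 4-fold apart between these arrays. Klk1, a tissue kallikrein of those ducts, had levels of 7.54 in parotid, 7.72 in submandibular-labelled and 7.37 in sublingual gland. Of the mucous cell products, Muc19, a gel-forming mucin of rodent mucous cells, was not well above background in parotid gland and had levels of 9.80 in submandibular-labelled and 9.71 in sublingual gland. Muc5b, the other mucin of the list, ran the other way and was at least 4.46-fold and 5.72-fold higher in parotid gland, and Galnt12 was not well above background on any array. Tff3 had a level of 0.93 in submandibular-labelled gland and was not well above background in parotid or sublingual gland. It was at least 25.3-fold higher in submandibular-labelled than in sublingual gland, the 1 mucous gene past 4-fold of 6 compared between these arrays. Of 11 matched serous products, 11 were at least 4-fold higher in parotid gland than on each other array, with median differences of 8.72 and 8.10. Over all genes, 2.81% were this much higher than in submandibular-labelled and 2.85% than in sublingual gland. Well above background were 11 of 11 serous products in parotid, 8 in submandibular-labelled and 9 in sublingual gland, and 2, 6 and 5 of 8 mucous products in the same order of glands.

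Proline-rich proteins are among the most abundant products of parotid acinar cells. They are secreted as acidic, basic and glycosylated forms built from short repeats rich in proline, glutamine and glycine, and they bind dietary tannins, calcium and the tooth surface. In rat and mouse, feeding tannins or repeated stimulation of beta-adrenergic receptors with isoproterenol is known to raise their synthesis strongly. The glutamine/glutamic acid-rich proteins are related secreted proteins known from the rat submandibular gland.

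RefSeq places 11 genes, counted here as the family, along this stretch of rat chromosome 4. Their order is Prb1, Prpmp5, Prb3, Prp2, Prp2l2, Prp25l1, Prp25, Prp15, Glal, Prh1 and Prr4. Glal is counted with them because the array files place its probe there and it is no taste receptor. Whether it is related to the others was not tested. Prpg1, Prpg2, Sgp158 and Grpca of the array files are older names of Prb1, Prpmp5, Prb3 and Prh1. The probe described as PRP25 was tied to Prp25 by that name alone, since its accessions name no RefSeq gene. Promoter sequences of 10 of these genes were found in RefSeq, from 250 bases before to 50 bases after the start, on the GRCr8 build. Those of 5 members are shown because these genes gave the contrasting patterns described next: 4 high in parotid gland by different amounts, and Prh1, whose pattern was another. Each is written 5′ to 3′ along the gene, and capitals mark the TATA box letters TATAAA nearest before the start. The Prb3 window holds no TATAAA and has no capitals.
Prb1 (Prpg1), chr4:167243754-167244053, minus strand: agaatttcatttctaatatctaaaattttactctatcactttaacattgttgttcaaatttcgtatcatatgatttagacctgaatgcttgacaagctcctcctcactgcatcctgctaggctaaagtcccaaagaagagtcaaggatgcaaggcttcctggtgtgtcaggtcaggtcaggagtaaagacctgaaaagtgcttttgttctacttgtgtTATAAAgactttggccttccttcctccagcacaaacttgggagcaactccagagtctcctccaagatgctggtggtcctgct
Prpmp5 (Prpg2), chr4:167271617-167271916, minus strand: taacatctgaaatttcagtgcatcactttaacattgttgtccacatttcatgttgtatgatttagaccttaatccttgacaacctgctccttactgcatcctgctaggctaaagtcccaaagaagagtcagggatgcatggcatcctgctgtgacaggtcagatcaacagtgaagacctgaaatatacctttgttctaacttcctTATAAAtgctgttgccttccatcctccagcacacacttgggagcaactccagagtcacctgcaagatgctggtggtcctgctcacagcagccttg
Prb3 (Sgp158), chr4:167295584-167295883, plus strand: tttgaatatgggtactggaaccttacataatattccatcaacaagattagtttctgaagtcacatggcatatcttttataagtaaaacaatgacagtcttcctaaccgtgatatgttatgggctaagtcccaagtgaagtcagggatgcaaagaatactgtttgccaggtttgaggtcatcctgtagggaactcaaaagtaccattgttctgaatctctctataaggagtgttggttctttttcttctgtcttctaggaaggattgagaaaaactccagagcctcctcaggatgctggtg
Prp25, chr4:167533980-167534279, plus strand: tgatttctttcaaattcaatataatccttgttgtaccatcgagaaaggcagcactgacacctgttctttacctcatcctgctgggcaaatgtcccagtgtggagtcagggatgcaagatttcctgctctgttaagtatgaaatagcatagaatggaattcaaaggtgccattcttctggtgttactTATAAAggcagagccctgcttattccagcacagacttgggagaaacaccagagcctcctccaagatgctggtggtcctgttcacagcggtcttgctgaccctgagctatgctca
Prh1 (Grpca), chr4:168274902-168275201, plus strand: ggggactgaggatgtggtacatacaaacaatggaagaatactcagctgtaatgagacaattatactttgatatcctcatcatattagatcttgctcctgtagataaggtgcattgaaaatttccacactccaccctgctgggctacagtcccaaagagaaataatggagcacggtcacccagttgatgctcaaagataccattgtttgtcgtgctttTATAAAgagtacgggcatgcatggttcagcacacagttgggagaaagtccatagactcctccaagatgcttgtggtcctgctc

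The letters TATAAA stood on the gene strand in 9 of the 10 family windows and in 8.80% of all 33469 RefSeq rat promoter windows of the same length. Read on both strands, they were in 10 of 10 and in 14.2% of all windows. In the printed windows they began 32 bases before the start in Prb1, 45 in Prpmp5, 64 in Prp25 and 33 in Prh1. The cAMP response element TGACGTCA, searched on both strands, was in 0 of the 10 family windows and in 1.83% of all windows. Its partial form TGACG, which lies inside the full element, was also in 0 of 10, against 21.2% of all. The E-box CAGCTG was in 2 of 10, those of Prh1 and its copy Prr4, against 15.1% of all. The ETS core GGAAG was in 8 of 10, against 70.1% of all, and the CCAAT box in 1 of 10, against 37.5%, both searched on both strands. A match is a description of these letters and no shown site of binding. Several family windows are close copies, as given below, so the 10 are not independent of each other.

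The windows of different family genes are alike to different degrees. Over the 45 pairs, identity in a global alignment ran from 51.5% to 97.0%, with a median of 59.6%. Prh1 and Prr4 had 97.0%, Prp2 and Prp25l1 83.0%, Prp2l2 and Prp25 80.8%, Prp25l1 and Prp25 78.7%, and Prpmp5 and Prb1 78.3%. Windows of unrelated genes were not aligned, so the identity of unrelated windows under the same alignment is not given. Near-identical copies bear on the probes too: the accessions of the Grpca probe name both Prh1 and Prr4, so its signal may come from either gene. The accessions of the probe named RGD1559532_predicted name both Prp25l1 and Prp15. The array files give no probe sequences, so cross-hybridisation within the family was not tested.

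Of 8 member probes that could be compared between parotid and submandibular-labelled gland, 5 were at least 4-fold higher in parotid gland and 0 were at least 4-fold lower. These were the probes of Prpg1, Sgp158 and PRP25 and both probes of Prpg2. At the same threshold, 2.99% of all 23967 compared probes were higher in parotid gland and 2.45% were lower. The same 5 probes were at least 4-fold higher in parotid than in sublingual gland, again with 0 of 8 lower, against 2.63% of all 24249 probes higher and 2.55% lower. The median difference of the compared members was 5.31 from submandibular-labelled and 5.21 from sublingual gland, with bounds taken at their value; over all probes it was -0.00 and -0.02. Both comparisons share the parotid array. In whole glands, fewer cells that make a product and less RNA per cell cannot be told apart.

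**Figure D1:**
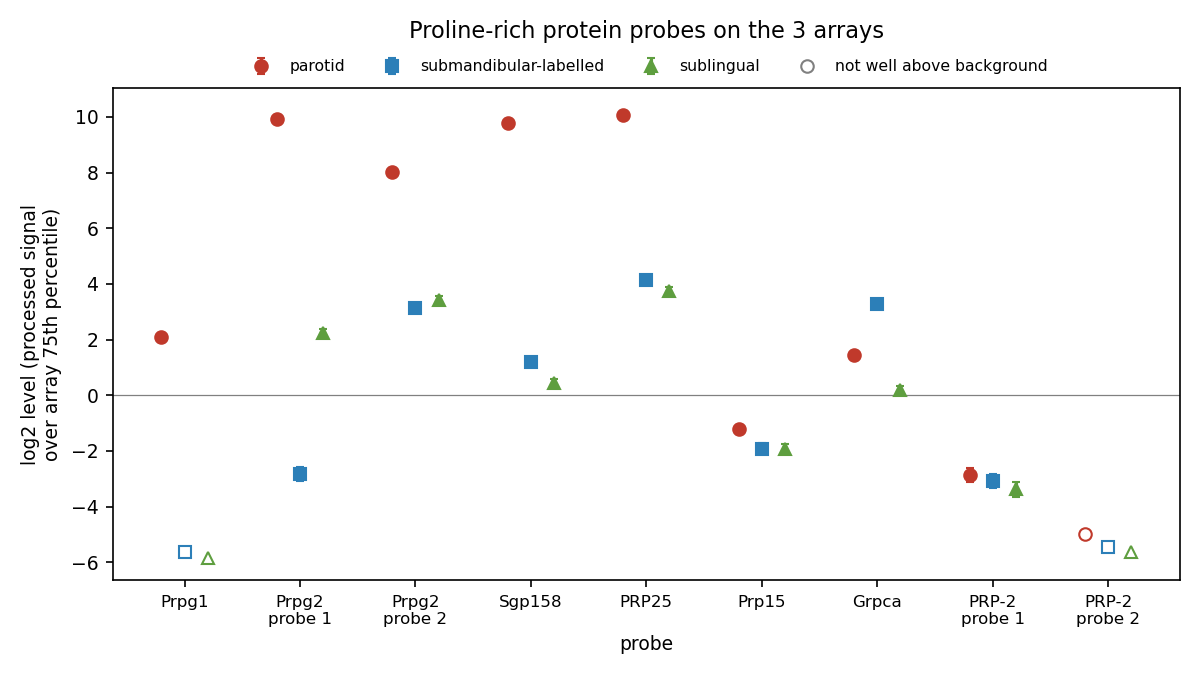
Level of each member probe on the parotid (circles), submandibular-labelled (squares) and sublingual array (triangles), as log2 of processed signal over the array's 75th percentile. Bars are the scanner software's spot error, and open symbols were not well above background. In Prpg1, Prpg2, Sgp158 and PRP25 the parotid level lies above the other 2, and in Grpca the submandibular-labelled level is the highest of the 3.

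Prpg1 and Prpg2 encode proline-rich proteoglycans, secreted proteins with a proline-rich core. Prpg1 (chr4:169556030-169558542, rn4) had a level of 2.08 in parotid gland, from a processed signal of 787. Its levels of -5.65 in submandibular-labelled and -5.83 in sublingual gland, from signals of 4.55 and 4.29, were not well above background. Parotid gland was therefore at least 53.0-fold above submandibular-labelled and at least 56.4-fold above sublingual gland, log2 bounds of 5.73 and 5.82. These bounds depend on the background correction: with normexp the log2 differences were 3.66 and 3.77. The other 2 glands could not be compared for this gene.

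Prpg2 was measured by 2 probes. The first (chr4:169583421-169583731) had levels of 9.94 in parotid, -2.83 in submandibular-labelled and 2.24 in sublingual gland, from signals of 183000, 32.1 and 1150. All 3 were well above background and lie far apart. Parotid gland was higher by 12.77 (error 0.28), or 6988-fold, than submandibular-labelled gland, and by 7.71 (error 0.20), or 209-fold, than sublingual gland. With normexp background correction the first of these was 11.15. Among all probes, with bounds taken at their value here and in the ranks below, they held ranks 5 and 23.

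The second Prpg2 probe (chr4:169586438-169586497) had levels of 8.02 in parotid, 3.13 in submandibular-labelled and 3.42 in sublingual gland. Parotid gland was again the highest, by 4.89 and 4.60 (error 0.20 each), or 29.6-fold and 24.3-fold. The probes of this gene disagree on the other 2 glands. The first was 5.07 lower on the log2 scale in submandibular-labelled than in sublingual gland (log2 difference -5.07, error 0.28), and the second differed by -0.29 (error 0.20). The first value was the lowest of 23154 compared with bounds taken at their value, and was -3.62 with normexp. Which of them follows the Prpg2 transcript was not tested.

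Some serous genes of the marker list also stood lower in submandibular-labelled than in sublingual gland, as the first Prpg2 probe did. Dnase1, a secreted deoxyribonuclease, differed by at least 4.59 on the log2 scale (a bound of -4.59, since it was not well above background in submandibular-labelled gland), Crisp3 by -2.92 and the amylase gene Amy1 by -1.27. In the whole serous list, 2 of 9 compared genes were at least 4-fold lower and 1, Oprpn, was at least 4-fold higher in submandibular-labelled gland (log2 difference 2.28), with a median of 0.14. The part of these cells' products in the Prpg2 signal was not tested.

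Sgp158 encodes a proline-rich glycoprotein, the kind of proline-rich protein that carries sugar chains. Its probe (chr4:169613800-169613859) had levels of 9.78 in parotid, 1.21 in submandibular-labelled and 0.46 in sublingual gland, from signals of 164000, 527 and 335. It was 8.58 higher (error 0.20), or 381-fold, in parotid than in submandibular-labelled gland, and 9.33 higher (error 0.20), or 642-fold, than in sublingual gland. These were differences of rank 18 and 11 over all probes. The other 2 arrays lay close, with a difference of 0.75 (error 0.21).

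PRP25 is an acidic proline-rich protein; acidic forms are the ones known to bind calcium and the tooth surface in humans. Its probe (chr4:169822880-169822939) had levels of 10.08 in parotid, 4.13 in submandibular-labelled and 3.76 in sublingual gland, from signals of 202000, 4000 and 3300. Parotid gland stood 5.95 above submandibular-labelled and 6.33 above sublingual gland (error 0.20 each), or 61.9-fold and 80.3-fold. Unlike Prpg1, this probe was well above background on all 3 arrays. Submandibular-labelled gland was 0.38 above sublingual gland (error 0.20).

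Prp15, a further proline-rich protein gene, was nearly level. Its probe (chr4:169850610-169850669) had levels of -1.22 in parotid, -1.92 in submandibular-labelled and -1.93 in sublingual gland, from signals of 79.7, 60.2 and 64.1. The differences were 0.70 (error 0.26) and 0.71 (error 0.25), or 1.62-fold and 1.63-fold, both under 4-fold. The probe named RGD1559532_predicted, whose accessions also name Prp15, gave differences of at least 12.99 and of 12.70 in the same 2 comparisons, so probes tied to Prp15 by accession disagree.

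Grpca encodes a glutamine/glutamic acid-rich protein, and it had another order of glands. Its probe (chr4:170583910-170583969) had levels of 1.46 in parotid, 3.28 in submandibular-labelled and 0.18 in sublingual gland, from signals of 513, 2220 and 276. The submandibular-labelled level was the highest and the sublingual the lowest. Parotid gland differed by -1.82 (error 0.20) from submandibular-labelled gland, which was 3.53-fold above it, and by 1.29 (error 0.21) from sublingual gland, or 2.44-fold. Submandibular-labelled exceeded sublingual gland by 3.11 (error 0.21), or 8.61-fold.

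Those last values set Grpca apart from most of the array. Between submandibular-labelled and sublingual gland, 0.0734% of 23154 probes were higher by 4-fold or more and 0.147% lower, which makes 0.22% in either direction. Grpca held rank 8 from the top among the 17 higher probes. Of the 7 members compared between these glands, 1 passed 4-fold upwards (Grpca), 1 downwards (the first Prpg2 probe) and 5 in neither direction. Oprpn, a salivary proline-rich mucin-like gene, was another gene at least 4-fold higher in submandibular-labelled gland, as given above, but it was higher still in parotid gland, by 5.50 and 7.78.

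PRP-2 was measured near the limit of detection. The probe at chr10:92705889-92705948 had levels of -2.86 in parotid, -3.08 in submandibular-labelled and -3.38 in sublingual gland, from signals of 25.6, 26.9 and 23.4. The parotid differences of 0.22 (error 0.36) and 0.52 (error 0.37) were under or near the spot error. The second probe, at chr10:92748180-92749478, was not well above background on any array, with signals of 5.87, 5.18 and 4.97. RefSeq names this gene Prp2l1. A further 4 probes with the PRP-2 description under another name were likewise not well above background on any array, with signals of 3.80 to 13.2.

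**Figure D2:**
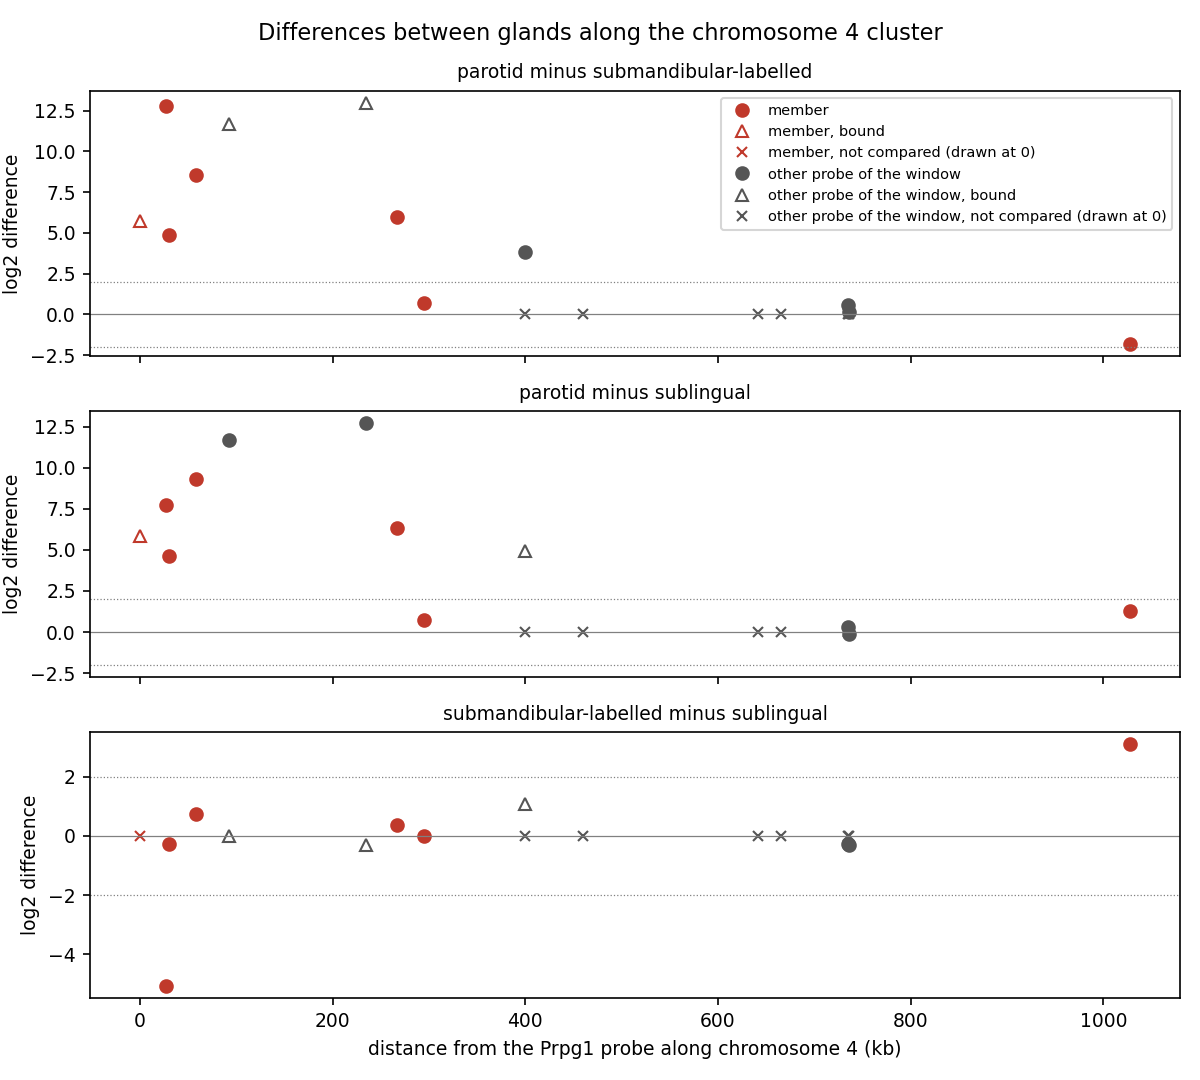
Log2 differences between arrays for the probes of the chromosome 4 stretch, against the distance in kb from the Prpg1 probe. Members are red and other probes grey, open triangles are bounds, crosses are probes not well above background on either array, and dotted lines mark 4-fold. Parotid differences past 4-fold lie no further than 399.7 kb from the Prpg1 probe, and in the lowest panel the first Prpg2 probe (-5.07) and, at the far end, Grpca (3.11) pass 4-fold.

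Of the 11 other probes in this stretch of chromosome 4, 5 could be compared, and 3 of them were at least 4-fold higher in parotid gland than on each other array. Over all compared probes, 2.99% were this much higher than in submandibular-labelled and 2.63% than in sublingual gland. Prp2_predicted (chr4:169648364-169648423), described as proline rich without a hyphen and so outside the rule, had levels of 8.04 in parotid, -5.20 in submandibular-labelled and -3.64 in sublingual gland. Parotid gland was at least 3299-fold above submandibular-labelled gland and 3280-fold above sublingual gland, log2 differences of at least 11.69 and of 11.68. With normexp these were 9.63 and 9.51.

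The probe named RGD1559532_predicted (chr4:169790334-169790393), RefSeq's Prp25l1, had levels of 9.35 in parotid, -5.62 in submandibular-labelled and -3.35 in sublingual gland. Parotid gland was at least 8147-fold above submandibular-labelled and 6641-fold above sublingual gland, log2 differences of at least 12.99 and of 12.70. With normexp these were 10.76 and 10.57. RGD1306750_predicted (chr4:169955746-169955805), RefSeq's Glal, had levels of 1.18 in parotid, -2.65 in submandibular-labelled and -5.21 in sublingual gland. It was 3.82 higher, or 14.1-fold, in parotid than in submandibular-labelled gland and at least 30.1-fold higher, a log2 bound of 4.91, than in sublingual gland. With normexp its log2 differences were 2.44 and 2.97.

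The remaining compared neighbours were close on all arrays. AI179744, an expressed sequence tag, differed by 0.58 and 0.33, and TC585145, a transcript contig printed on 10 spots, by 0.17 and -0.13. The 3 bitter taste receptor probes that lie between the proline-rich protein genes were not well above background on any array. Over the arrays as a whole, 0 of 10 matched genes of the bitter taste receptor list were well above background in any gland. Just outside the stretch, the taste receptor probe named Tas2r5 on one side and Kap, an androgen-regulated kidney gene, on the other were not well above background on any array either. Among the probes looked at farther out on the Tas2r5 side, 2 were at least 4-fold higher in parotid than in submandibular-labelled gland. Over all compared probes the share was 2.99%. The others compared on that side, Klra5, AA866458 and an unnamed probe, were under 4-fold at their value or bound. So was every compared probe on the Kap side. Csda (chr4:169076651-169076710), RefSeq's Ybx3, a cold shock domain protein, was 5.72-fold above submandibular-labelled and 6.22-fold above sublingual gland, and ENSRNOT00000034403 (chr4:169217585-169217644), which has no RefSeq name here, 5.31-fold and 3.67-fold.

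**Figure D3:**
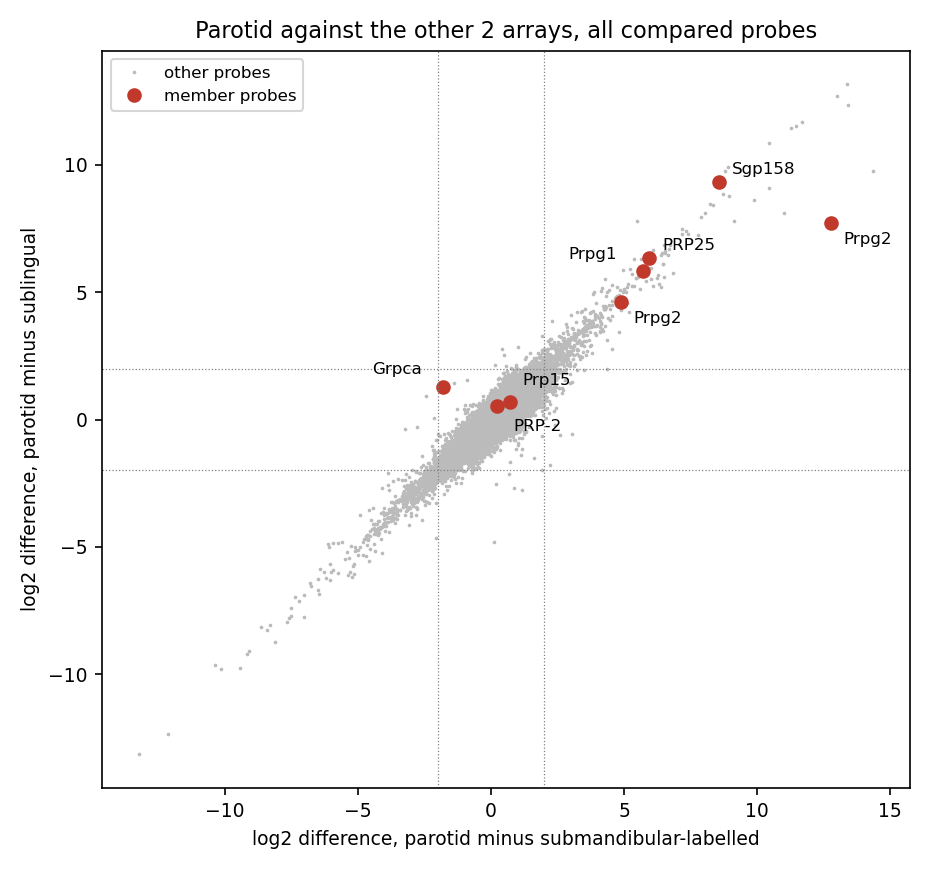
Parotid minus submandibular-labelled (x axis) against parotid minus sublingual (y axis), as log2 differences, for 23644 probes compared in both; dotted lines mark 4-fold and member probes are red. The axes share the parotid array. Of 524 probes at least 4-fold higher in parotid gland on both axes, 5 are members; Grpca lies to the left of 0 on the x axis, and the first Prpg2 probe stands at 12.77 on the x axis and 7.71 on the y axis.

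Genes with the most similar pair of parotid differences were found by the distance to the members' median pair (5.31, 5.21) over 9712 candidate genes, in log2 units and over 3 arrays. They were Vpreb3, a B cell surrogate light chain gene (distance 0.21), Blm, a DNA helicase (0.30), Adtrp, a lipid hydrolase of cell membranes (0.31), Mup4, a lipocalin (0.32), and Sp2, a zinc finger transcription factor (0.38). Blm was measured on all 3 arrays, 5.07 and 5.02 higher in parotid than in submandibular-labelled and sublingual gland. Vpreb3, Mup4 and Sp2 were bounds in both comparisons and Adtrp in the first. A median pair is a poor likeness of members that spread from -1.82 to 12.77.

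Genes of the pathways that serve these proteins were counted from 10 lists. Over all genes and at 4-fold, 2.81% were higher and 2.94% lower in parotid than in submandibular-labelled gland, and 2.85% higher and 3.1% lower in parotid than in sublingual gland. Of 24 compared genes of beta-adrenergic and cAMP signalling, 0 were at least 4-fold apart in parotid from submandibular-labelled gland, with a median of 0.08. Of 25 compared with sublingual gland, 1 was higher and 0 lower, with a median of -0.08. Adcy9, an adenylyl cyclase that makes cAMP, differed by 1.97 and 2.45. Crtc3, a coactivator of the factor CREB, differed by 1.89 and 1.99. Of 2 phosphodiesterases that break down cAMP, Pde4b differed by 1.32 and 1.68 and Pde4d by -1.44 and -1.35.

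The supply of proline, glutamine and glycine showed 0 of 21 genes at least 4-fold higher in parotid gland in either comparison. Against submandibular-labelled gland 3 were at least 4-fold lower and against sublingual gland 2, with medians of 0.11 and 0.29. Asns, which makes asparagine from aspartate and uses up glutamine, stayed under 4-fold, with 1.70 against sublingual gland. Gls2, a glutaminase, stood at -2.81 and -3.44, and Slc1a5, a glutamine transporter, at -2.63 and -2.59. Slc7a5, a transporter of large neutral amino acids, stood at -2.01 and -1.74. Of 8 listed tRNA synthetases for proline, glutamine, glycine and glutamate, 4 were compared, Eprs1, Qars1 and the mitochondrial Pars2 and Ears2. They gave 0 genes at 4-fold, with medians of 0.25 and 0.36.

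Among enzymes that modify secreted proteins, 1 of 20 was at least 4-fold higher and 2 lower in parotid than in submandibular-labelled gland, with a median of -0.12. Against sublingual gland 1 of 19 was higher and 3 lower, with a median of 0.26. Fam20a, the partner of the Golgi kinase that phosphorylates secreted proteins, was higher by 3.48 and 4.03. Ppic, a proline isomerase of the secretory pathway, was lower, at -3.18 and -3.43, as was the carboxypeptidase Cpd, at -2.93 and -2.72. Pcsk7, a proprotein convertase, stood at -1.07 and -2.03.

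Transcription factors of secretory acinar cells gave 0 of 16 genes at 4-fold against submandibular-labelled gland, with a median of 0.08. Against sublingual gland 1 of 16, Sox10, was higher and 0 were lower, with a median of 0.66. Sox10, a factor of salivary acinar and myoepithelial lineages, differed by 1.49 and 2.10, and Bhlha15, which drives the secretory programme of serous cells, by 1.41 and 1.80. Elf5, an ETS factor of glandular epithelia, differed by 0.53 and 1.69, and Creb3l1, a factor of secretory pathway genes, by -1.64 and -1.32. Of the other salivary proline-rich protein genes, Smr3a, a secreted prohormone-like gene of another chromosome, was at least 13.42 higher than in submandibular-labelled gland and 12.36 higher than in sublingual gland. Smr3b was not well above background in parotid or sublingual gland, and Sprr3 on no array.

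The mucous list moved the other way from the members. Of 7 genes compared with submandibular-labelled gland, 6 were at least 4-fold lower and 1 higher in parotid gland, with a median of -5.43. Of 6 compared with sublingual gland, 5 were lower and 1 higher, with a median of -7.23. The granular convoluted duct list held 1 gene at least 4-fold higher in parotid gland, Smr3a, of 10 and of 9 compared. The part of cell makeup in the members' differences was not tested.

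**Figure D4:**
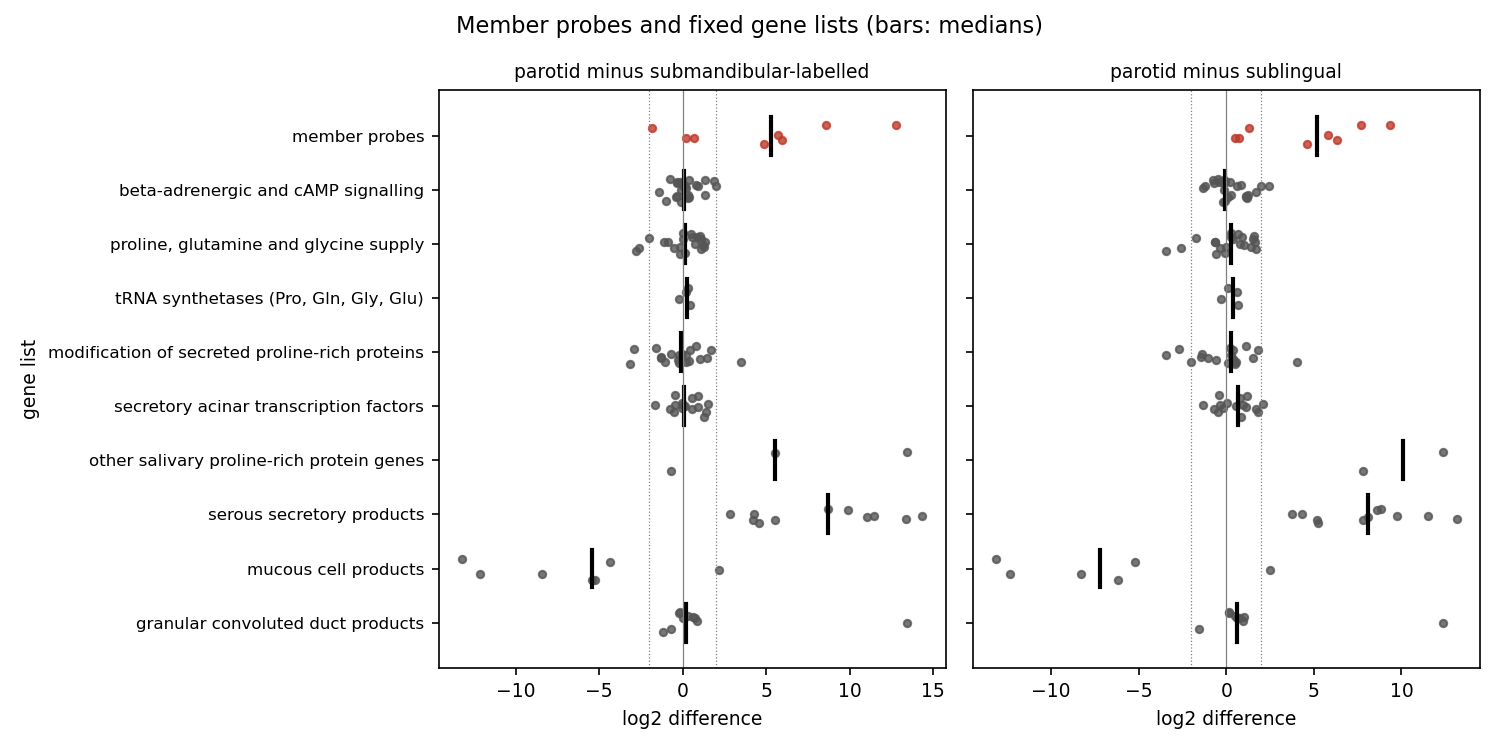
Log2 differences of the member probes (red) and of the genes of each list (grey), parotid minus submandibular-labelled on the left and parotid minus sublingual on the right; black bars are medians and dotted lines mark 4-fold. The serous list has medians of 8.72 and 8.10 and the mucous list of -5.43 and -7.23, and the signalling, supply, tRNA synthetase, modification and transcription factor lists have medians from -0.12 to 0.66.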

How the data were processed

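Total RNA of 3 glands was hybridised to 1-colour Cy3 Agilent arrays (design 014879), 1 array per gland. The processed signals are intensities that Agilent Feature Extraction 10.1.1.1 (protocol GE1-v5_10_Apr08) detrended within each array, per the file headers. The deposited value table holds a ratio per spot; set against the scanner values, it is the processed signal divided by 190, 236 or 250 on the parotid, submandibular-labelled and sublingual array within a log2 range of 0.0142 over bright spots, with column medians of 0.152, 0.122 and 0.128.

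Outlier spots were left out, spots of one probe averaged, and log2 signals taken relative to each array's 75th percentile (signals of 186, 228 and 244), with pandas 2.3.3 in Python 3.11.15; limma 3.58.1 in R 4.3.3 gave the normexp (offset 50) and quantile alternatives. Probes were matched to RefSeq by accession or symbol, 19211 of 41012, giving 15031 genes; where a gene had several probes, the lists used the brightest. Counting by fold was checked on simulated data, with changes put into bright probes only. All member probes are named, with the 5 neighbours of largest difference, the 5 most similar genes and up to 4 genes per list by size of the parotid difference; Klk1, Amy1, Muc5b, Galnt12, Csda and ENSRNOT00000034403 were chosen after their values were seen. Members and lists were chosen with earlier results of these data known. The number of arrays limits the precision.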

Additional observations from a re-analysis of the deposited data

How the results depend on the processing

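Alternatives were median centring, quantile normalization, normexp background correction, the deposited ratios, no bound on dim probes, probes well above background on both arrays, outlier spots kept, thresholds of 2-fold and 10-fold, and 3 changes of membership; the same settings for the neighbour probes, counting proline rich without the hyphen and leaving out the chromosome 10 probes were chosen after seeing the data. The counts of members at least 4-fold higher in parotid gland, 5 in both comparisons, were 4 to 6 under each of these except the narrowest membership. With the names Prpg1, Sgp158, Grpca and PRP-2 alone, which keeps fewer probes, the count was 2 against submandibular-labelled and 2 against sublingual gland, and 1 member was at least 4-fold apart between submandibular-labelled and sublingual gland. That last count, 2 in the main setting, was also 1 at a 10-fold threshold, where Grpca at 8.61-fold drops out.

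No member difference past 4-fold changed its sign under these alternatives, though the small PRP-2 differences did, from -0.11 to 0.32 against submandibular-labelled gland; 111 member values moved by less than the spot error and 27 by more. The Prpg1 differences depend most on the treatment of dim spots, from 3.66 to 7.73 against submandibular-labelled and from 3.77 to 7.91 against sublingual gland, since both other arrays were not well above background. The first Prpg2 probe ranged from 11.15 to 12.77 against submandibular-labelled gland, and its difference of submandibular-labelled minus sublingual gland from -5.07 to -3.62. Grpca ranged from 2.76 to 3.17 between submandibular-labelled and sublingual gland. Its parotid minus submandibular-labelled difference ranged from -2.13 to -1.65. The value of -2.13, under median centring, was past 4-fold lower in parotid gland, unlike the main value of -1.82. Median centring moved the median of all probes from -0.00 to -0.31 for parotid minus submandibular-labelled and from -0.02 to -0.25 for parotid minus sublingual gland.

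Over all probes, 717 were at least 4-fold higher and 588 lower in parotid than in submandibular-labelled gland; median centring gave 473 and 819, normexp 254 and 326, and no bound 1333 and 866. Against sublingual gland 637 were higher and 618 lower; median centring gave 486 and 829, normexp 249 and 341, and no bound 1117 and 952. Normexp lowered the parotid differences of Prp2_predicted, RGD1559532_predicted and RGD1306750_predicted most, as given with their values. Those of AI179744 and TC585145 were lowest under median centring. Under normexp, RGD1559532_predicted (10.76) stood below the first Prpg2 probe (11.15) against submandibular-labelled gland. No paired analysis was possible because each gland has 1 array. Brightness limits Prpg1, PRP-2 and the bounds given for Prp2_predicted and RGD1559532_predicted.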
